A study of Mus musculus with 12 samples.

Results

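The comparison described here sets retina with laser-induced choroidal neovascularisation (CNV) against retina without laser, with the same RNA drug given to both. All the animals were C57BL/6J mice, and every one of these libraries came from retina injected into the vitreous with 1 µl of cp-asiNRL at 6 µg/µl. cp-asiNRL is an asymmetric small interfering RNA against Nrl, made to enter cells without a carrier. The lasered group (CNV cp-asiNRL) and the unlasered group, which the labels call WT, held 3 libraries each, so 6 of the 12 libraries of the series were compared. They were chosen by their labels and not by any measured value. The other 6 libraries, lasered or not and injected with 0.5X PBS, are set beside them only to show where the response differed. No group used here received a non-targeting RNA. The labels do not give the number of animals per library, their age, the number of laser spots or the time of collection, so the p-values below reflect the spread among 3 libraries a group, which may be technical.

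In this model a laser burn breaks the membrane under the pigment epithelium, and vessels from the choroid grow towards the retina through the gap. It is used as a model of neovascular macular degeneration. The neural retina answers such a burn through Müller glia, which take on intermediate filaments and secrete growth factors, and through microglia, which move to the lesion and engulf debris. Nrl is a transcription factor that makes photoreceptor precursors become rods and keeps rod genes on. Retinal RNA sequencing does not separate the lesion from the rest of the tissue, and in bulk RNA fewer cells of a type cannot be told apart from less RNA per cell.

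The 6 libraries held 54517496 to 67270662 reads in genes. Levels are given as CPM, reads scaled to library totals that were adjusted by a trimmed mean of log ratios, and differences as lasered minus unlasered on the log2(CPM + 1) scale, which understates the change of low genes. The tissue label held against its markers, since all 16 genes of rod phototransduction passed the filter on low values, and genes of lens summed to at most 14.99 CPM in any of these libraries. Reads of genes that overlap on opposite strands cannot be told apart in these counts, so a gene named with such a partner is uncertain.

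The lasered libraries did not resemble one another. Over the 24903 genes tested, the SD of the log2 difference from the mean of the other two unlasered libraries was 0.15, 0.117 and 0.126 in unlasered replicates 1, 2 and 3. From the mean of all 3 unlasered libraries it was 0.23 in lasered replicate 1, 0.118 in replicate 2 and 0.283 in replicate 3. Lasered replicate 2 had 3 genes more than 2-fold from the unlasered mean, against 154 in replicate 1 and 287 in replicate 3. It therefore lay about as close to the unlasered libraries as those lay to each other, and the counts over gene lists are given with and without it. Leaving it out is a choice made on the values compared, so the calls obtained without it describe replicates 1 and 3 and are no independent test. Of the unlasered libraries replicate 1 lay farthest from the others, with 42 genes more than 2-fold from their mean.

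With all 6 libraries limma with Benjamini-Hochberg adjustment called no gene at an adjusted p under 0.05, 0% of the 24903 tested in either direction. At an unadjusted p under 0.05 there were 3436 genes, and limma voom also called 0. The median log2 change over all genes was 0.01, and 51.9% of the genes were above 0. All 3 lasered libraries lay above all 3 unlasered libraries for 2176 genes, 8.74% of those tested, and below them for 2146 genes, 8.62%. Once lasered replicate 2 was left out limma called 5404 of 24695 genes, 2727 higher (11%) and 2677 lower (10.8%). Without that library and unlasered replicate 1 together it called 5493, and leaving out any other single library gave 0 or 1 gene. Counts of list members called without lasered replicate 2 are to be read against the 11% higher and 10.8% lower over all genes.

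**Figure D1:**
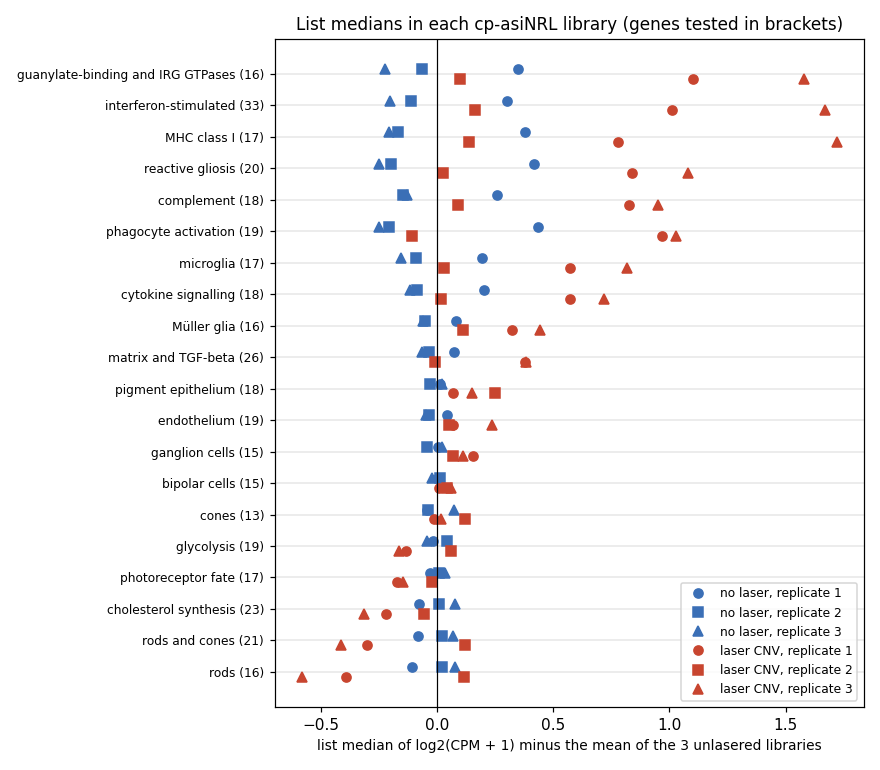
Each point is the median, over the genes of one list, of log2(CPM + 1) in 1 library minus the mean of the 3 unlasered libraries, for 20 gene lists (rows, genes tested in brackets), with blue for unlasered and red for lasered retina and the marker shape for the replicate. Lasered replicates 1 and 3 lie to the right for immune and glial lists, up to 1.72 for MHC class I, and to the left for rods (-0.389 and -0.582), while lasered replicate 2 stays between -0.107 and 0.248 in every row shown.

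Nrl (chromosome 14, 55756435 to 55762438, minus strand, GRCm39) was the target of the RNA that both groups received. Its level was 404, 421 and 471 CPM in the unlasered libraries and 327, 489 and 265 CPM in the lasered ones. Lasered replicate 2 had the highest level of the 6 libraries and replicates 1 and 3 the lowest, so the groups overlapped. The means were 431.8 CPM ± 35.0 and 360.4 ± 116 (SD, n = 3 each), and a two-sided exact permutation test gave p = 0.4, with 0.1 the smallest p possible for 3 against 3. The log2 change was -0.30 (SE 0.19, limma adjusted p = 0.452). With lasered replicate 2 left out it was -0.55 (SE 0.08, adjusted p = 0.00145).

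Genes of rod phototransduction had a median log2 change of -0.295 and all 16 were below 0, but none was called and none separated the groups. Their summed level was 19750, 21250 and 23300 CPM in unlasered replicates 1 to 3 and 16010, 23780 and 13580 CPM in the lasered ones. Lasered replicates 1 and 3 lay below all 3 unlasered libraries for 16 of 16 rod genes, against 26.4% of all genes, whereas lasered replicate 2 lay within or above the unlasered range. Nr2e3, the nuclear receptor that acts below Nrl to hold cone genes silent in rods, was at 287, 314 and 335 CPM without laser and 232, 324 and 196 CPM with it. Gngt1, the rod transducin gamma subunit, was at 168, 182 and 200 CPM against 111, 189 and 127 CPM. In both, the lowest values again belonged to lasered replicates 1 and 3. Gnat1, the rod transducin alpha subunit, was at -0.22 (SE 0.18), and the rod channel subunits Cngb1 and Cnga1 were at -0.29 (SE 0.13) and -0.27 (SE 0.12). In the 5 libraries without lasered replicate 2 the list median was -0.48 and limma called all 16 members lower.

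Genes used by both rods and cones had a median of -0.23, with 20 of 21 below 0 and 0 called, and without lasered replicate 2 the median was -0.415 and 19 members were called lower. Pdc, phosducin, which binds the transducin beta and gamma subunits, had 820, 860 and 861 CPM in the unlasered libraries and 464, 872 and 445 CPM in the lasered ones. Replicates 1 and 3 lay far below every other library, and replicate 2 lay just above the unlasered ones. Pdc had the smallest adjusted p of all genes without lasered replicate 2 (log2 change -0.90, SE 0.05, limma adjusted p = 1.42e-05), against -0.58 (SE 0.22, adjusted p = 0.348) with it. Impg1, a proteoglycan of the matrix around photoreceptor outer segments, was the 1 member of 21 whose groups did not overlap, against 8.62% of all genes. It was at 443, 492 and 472 CPM without laser and 406, 443 and 366 CPM with it (log2 change -0.21, SE 0.08). Gucy2f, a photoreceptor guanylate cyclase, was at -0.37 (SE 0.14) and Unc119, which carries lipid-modified transducin, at -0.25 (SE 0.12). On the opposite strand Impg1 overlaps Myo6, Nr2e3 overlaps Gm7616 and Pdc overlaps 2310030A07Rik.

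Among the transcription factors of photoreceptor fate the median was -0.09 over 17 genes, with 3 above 0. Esrrb, an orphan nuclear receptor that supports rod survival, was at 446, 494 and 424 CPM without laser and at 301, 429 and 241 CPM with it (log2 change -0.53, SE 0.17). Only lasered replicate 2 lay inside the unlasered range. Crx, the homeobox factor of all photoreceptors, was at 496, 511 and 550 CPM against 388, 538 and 383 CPM (-0.27, SE 0.12). Prdm1, which keeps photoreceptor precursors from the bipolar fate, separated the groups, at 55.9, 57.4 and 57.9 CPM without laser and 49.8, 53.8 and 40.7 CPM with it. The receptor gene Notch1 separated them in the other direction, at 35.2, 34.6 and 31.8 CPM against 43.1, 35.5 and 42.8 CPM. Of the 17 genes 2 separated the groups upwards and 3 downwards, against 8.74% and 8.62% of all genes. None was called with all libraries. Without lasered replicate 2 limma called 8 of the 17 lower and 2 higher, against 10.8% and 11% of all genes. The counts upwards lie near these shares. Genes of the ribbon synapse, the specialised terminal of photoreceptors and bipolar cells, had a median of -0.06, with Rims2 at -0.26 (SE 0.10) and Unc13b at -0.22 (SE 0.10), and 6 of 16 were called lower without lasered replicate 2. Esrrb overlaps Gm40483, Notch1 overlaps 0610009E02Rik and Unc13b overlaps Fam214b on the opposite strand.

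Cone genes had a list median of -0.00205 over 13 genes, and their summed level was 2017, 2062 and 2118 CPM without laser and 2027, 2174 and 2002 CPM with it, so the groups overlapped. Opn1mw, the medium-wave cone opsin, was at 89.1, 82.2 and 89.9 CPM without laser and 78.1, 87.4 and 85.8 CPM with it (log2 change -0.06, SE 0.06). Opn1sw, the short-wave opsin, was at 180, 194 and 218 CPM against 169, 213 and 148 CPM (-0.17, SE 0.12), and it followed the library order of the rod genes. Arr3, cone arrestin, was at 152, 148 and 173 CPM against 165, 197 and 159 CPM (0.14, SE 0.09).

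Of the 13 cone genes 2 separated the groups upwards and 0 downwards, against 8.74% and 8.62% of all genes. Pde6c, the catalytic subunit of the cone phosphodiesterase, had 101, 100 and 108 CPM without laser and 115, 113 and 123 CPM with it (log2 change 0.19, SE 0.05, limma adjusted p = 0.346). Gnb3, the cone transducin beta subunit, had 107, 99.0 and 102 CPM against 130, 116 and 181 CPM (0.44, SE 0.14, adjusted p = 0.346). For these genes lasered replicate 2 lay on the side of the other lasered libraries. Without it limma called 3 cone genes higher (Pde6c, Gnb3 and the exchanger gene Slc24a2) and 3 lower, Opn1sw and the potassium channel subunit gene Kcne2 among them. The shares over all genes were 11% higher and 10.8% lower. Opn1sw overlaps Calu and Pde6c overlaps Gm52398 and Gm32440 on the opposite strand.

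**Figure D2:**
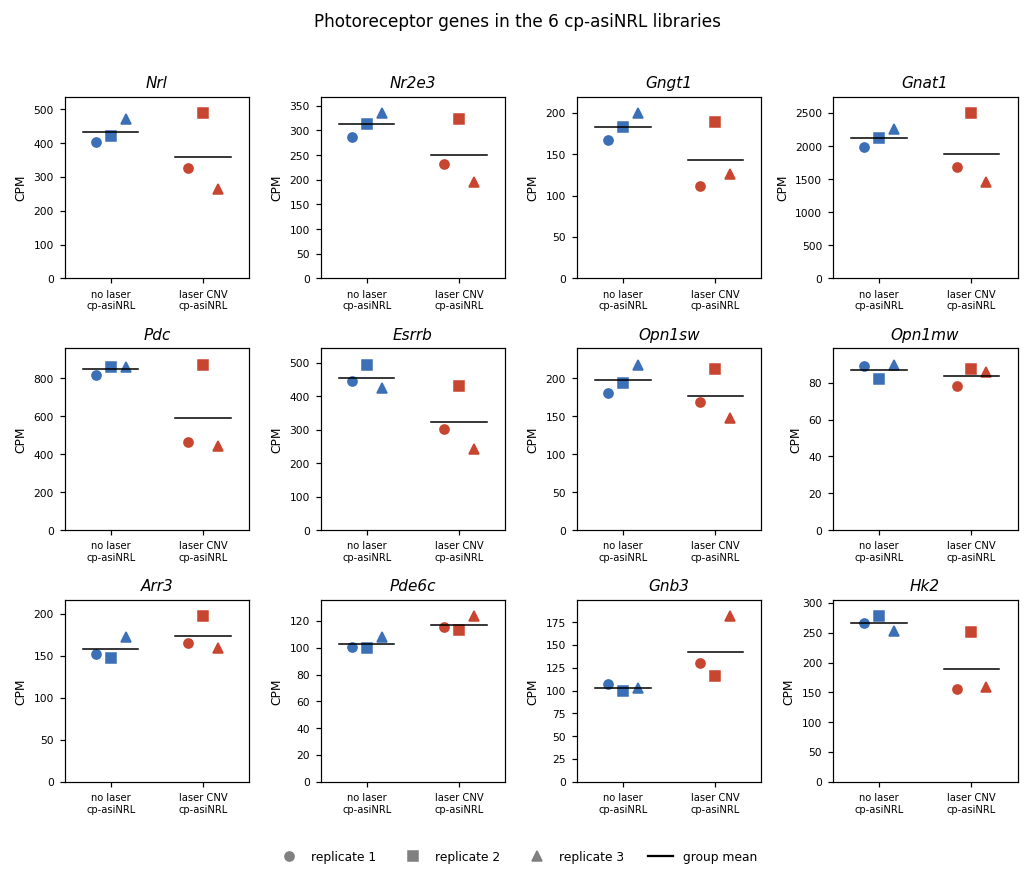
CPM (vertical axes from 0) of 12 genes of photoreceptors in the unlasered (blue) and lasered (red) cp-asiNRL libraries, with the marker shape for the replicate and a line at the group mean. Lasered replicates 1 and 3 are the lowest of the 6 libraries for Nrl, Nr2e3, Gngt1, Gnat1, Pdc, Esrrb and Hk2, and Pde6c and Gnb3 are higher in all 3 lasered libraries.

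Of the 42 gene lists, guanylate-binding proteins and interferon-stimulated genes had the highest medians with all 6 libraries. Interferons act through receptor-activated transcription factors on a short promoter element, and the genes they switch on block viral RNA and protein synthesis. All 33 genes tested were above 0, with a median of 0.915 against 0.01 over all genes, and 0 were called. Groups did not overlap for 6 of the 33, against 8.74% of all genes. Lasered replicates 1 and 3 exceeded every unlasered library for 33 of 33, against 25.8% of all genes. Unlasered replicate 1 was the highest of its group for 33 of 33, against 34.5% of all genes, and lasered replicate 2 lay between it and the other unlasered libraries for 25.

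Ifit1, which binds foreign RNA and blocks its translation, was at 6.51, 1.85 and 1.86 CPM without laser and at 12.5, 3.99 and 28.0 CPM with it (log2 change 1.66, SE 0.59, limma adjusted p = 0.346). Lasered replicate 3 had the highest level, and lasered replicate 2 was below unlasered replicate 1. Oasl2, an oligoadenylate synthetase-like protein, was at 6.32, 3.61 and 2.91 CPM against 14.3, 6.01 and 26.5 CPM (1.49, SE 0.43), again with lasered replicate 2 below unlasered replicate 1. Isg15, a ubiquitin-like modifier, was at 0.368, 0.121 and 0.159 CPM against 0.804, 0.518 and 1.86 CPM, and Irf7, the factor that amplifies interferon production, at 4.71, 4.22 and 3.79 CPM against 7.23, 5.11 and 17.9 CPM. Both separated the groups, as did Ifi27 (0.87, SE 0.18) and Ifit3b (1.36, SE 0.38). Without lasered replicate 2 the list median was 1.35 and limma called all 33 higher, with Ifit1 at 2.33 (SE 0.38, adjusted p = 0.00197). Ifi27 overlaps Ifi27l2a, Ifit1 and Ifit3b overlap Ifit1bl1, and Isg15 overlaps Gm46878 on the opposite strand.

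Promoters of these genes are shown because all members of the list lay above 0. The sequences are the 250 bases before the start of transcription in RefSeq (GRCm38.p6), written 5′ to 3′ on the gene's strand, with capitals for each match to GAAANNGAAA, a form of the interferon-stimulated response element, or its reverse complement TTTCNNTTTC.
Ifit1: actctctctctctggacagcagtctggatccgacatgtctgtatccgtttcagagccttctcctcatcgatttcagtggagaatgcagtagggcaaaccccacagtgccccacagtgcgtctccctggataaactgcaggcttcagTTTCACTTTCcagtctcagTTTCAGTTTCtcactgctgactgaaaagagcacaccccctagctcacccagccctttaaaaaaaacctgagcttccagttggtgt
Isg15: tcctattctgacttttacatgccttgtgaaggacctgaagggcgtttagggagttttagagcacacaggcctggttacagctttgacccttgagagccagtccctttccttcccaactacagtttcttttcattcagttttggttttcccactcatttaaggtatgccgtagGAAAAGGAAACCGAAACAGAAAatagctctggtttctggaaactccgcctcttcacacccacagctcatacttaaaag
Gbp2: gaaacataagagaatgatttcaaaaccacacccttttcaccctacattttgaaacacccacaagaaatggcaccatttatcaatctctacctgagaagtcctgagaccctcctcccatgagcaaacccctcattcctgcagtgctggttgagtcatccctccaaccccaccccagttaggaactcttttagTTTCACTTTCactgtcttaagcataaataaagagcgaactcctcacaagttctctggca
These are chr19:34640639-34640888 on the plus strand for Ifit1, chr4:156200819-156201068 on the minus strand for Isg15 and chr3:142620413-142620662 on the plus strand for Gbp2. Ifit1 holds 2 matches, which begin 104 and 85 bases before the start. Isg15 holds 3, each overlapping only its neighbours, which begin 78, 72 and 66 bases before it, and Gbp2 holds 1, which begins 59 bases before it. Over both strands 3.46% of 27025 gene promoters held the motif, against 11 of 25 interferon-stimulated genes with a promoter in the table and 9 of 11 guanylate-binding and immunity-related GTPase genes. It was in 3 of 15 MHC class I genes and in 0 of 18 genes of reactive gliosis. No rod gene of 11 held it. For contrast, TAATCC (reverse complement GGATTA), the core that Crx recognises, was in 7.21% of all promoters in 4 of 25 interferon-stimulated genes and in 5 of 11 rod genes, such as the promoter of Gngt1, in which the capitals mark it 44 bases before the start (chr6:3993758-3994007, plus strand).
Gngt1: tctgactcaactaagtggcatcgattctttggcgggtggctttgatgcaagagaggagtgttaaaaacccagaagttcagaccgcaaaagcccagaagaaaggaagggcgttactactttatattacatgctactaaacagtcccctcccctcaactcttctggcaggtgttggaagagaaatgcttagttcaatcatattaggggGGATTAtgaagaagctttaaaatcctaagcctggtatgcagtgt
A match to these letters is a description of the sequence and shows no binding.

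Guanylate-binding proteins and immunity-related GTPases attack the membranes around intracellular microbes. All 16 were above 0 with a median of 0.96, 2 of them without overlap, a share near the 8.74% of all genes, and 0 were called. Gbp2 had 2.90, 1.64 and 1.35 CPM in the unlasered libraries and 7.47, 2.55 and 10.4 CPM in the lasered ones, a 3.46-fold ratio of means (log2 change 1.27, SE 0.38). Gbp3 had 3.73, 2.39 and 1.45 CPM against 6.66, 4.12 and 15.1 CPM and did not overlap (1.34, SE 0.38). Gbp6 was at 1.14 (SE 0.36) and Gbp4 at 0.95 (SE 0.29). Once lasered replicate 2 was left out the median was 1.35 and all 16 were called higher.

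Genes of MHC class I, which presents peptides from inside the cell, were above 0 in 17 of 17, with a median of 0.89. H2-K1, a classical heavy chain, was at 14.5, 6.22 and 6.24 CPM without laser and at 24.5, 11.5 and 62.0 CPM with it (log2 change 1.54, SE 0.52). B2m, the light chain, was at 19.1, 8.24 and 6.27 CPM against 29.5, 10.6 and 64.7 CPM (1.37, SE 0.57). In both genes lasered replicate 3 stood highest, and lasered replicate 2 lay below unlasered replicate 1. H2-Q4 (1.32, SE 0.43), H2-T23 (1.02, SE 0.33) and the peptide transporter subunit Tap2 (0.59, SE 0.20) did not separate the groups either. MHC class II, which microglia and infiltrating cells use to present engulfed material, stayed low. H2-Aa was at 0.588, 0.138 and 0.0532 CPM against 1.37, 0.549 and 3.20 CPM, H2-Ab1 at 0.588, 0.190 and 0.354 CPM against 1.37, 0.594 and 3.73 CPM, and the invariant chain Cd74 at 1.1, 0.553 and 0.602 CPM against 1.93, 0.991 and 5.69 CPM. H2-Ab1 barely separated the groups. With lasered replicate 2 left out limma called 16 of 17 class I and 5 of 7 class II genes higher. Reads of near-identical class I and GBP genes may be split unevenly in the deposited counts. B2m overlaps Patl2, H2-K1 overlaps LOC118568331, Gbp2 overlaps Mir6381 and Gbp3 overlaps Gm40158 on the opposite strand.

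Sensors of double-stranded RNA were examined because the injected agent is such an RNA. Ifih1, which detects long duplexes, had 7.83, 5.24 and 5.12 CPM without laser and 14.7, 7.36 and 24.0 CPM with it (log2 change 1.1, SE 0.34). Ddx58, which detects short duplexes with a triphosphate end, had 7.28, 5.36 and 4.89 CPM against 12.9, 6.48 and 20.6 CPM (0.95, SE 0.32). Lasered replicate 2 was below unlasered replicate 1 for both. Eif2ak2, the RNA-dependent kinase that stops translation, separated the groups at 29.8, 26.8 and 26.0 CPM against 36.0, 31.1 and 49.1 CPM (0.45, SE 0.14). Myd88, an adaptor of Toll-like receptors, did so with little spread, at 2.24, 2.40 and 2.36 CPM against 3.03, 2.97 and 3.26 CPM (0.29, SE 0.08). These sensors are themselves interferon-stimulated genes. The whole list of RNA interference and RNA sensing also holds the machinery that loads and uses small interfering RNA. Its median was 0.09 over 23 genes with 15 above 0 and 0 called. Of the 23, 2 separated the groups upwards, Eif2ak2 and Myd88, and 1 downwards, against 8.74% and 8.62% of all genes. The count upwards lies near that share. Without lasered replicate 2 limma called 9 higher and 1 lower, against 11% and 10.8% of all genes. Ifih1 overlaps Gm39839 and Eif2ak2 overlaps Gm26637 on the opposite strand.

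Genes of reactive gliosis were above 0 in 20 of 20, with a median of 0.69 and 0 called. Their sum was 446.1, 315.6 and 301.8 CPM without laser and 654.6, 361.3 and 770.3 CPM with it. Vim, an intermediate filament of Müller glia, was the 1 member of 20 that separated the groups, against 8.74% of all genes. It was at 31.9, 25.1 and 24.6 CPM against 46.6, 35.8 and 51.2 CPM (log2 change 0.69, SE 0.14, limma adjusted p = 0.346). Gfap, the filament that Müller glia add on injury, was at 16.4, 9.06 and 6.49 CPM without laser and 42.0, 10.9 and 41.0 CPM with it (1.34, SE 0.48). Serpina3n, a secreted protease inhibitor of reactive glia, was at 12.9, 2.06 and 1.42 CPM against 21.6, 3.76 and 27.3 CPM (1.63, SE 0.76). Both show 4 libraries at a low or intermediate level and lasered replicates 1 and 3 above them, with unlasered replicate 1 over lasered replicate 2. Fgf2, a growth factor that protects photoreceptors, was at 0.72 (SE 0.26), Edn2, an endothelin that injured photoreceptors release, at 1.18 (SE 0.40), and Lcn2, an iron-scavenging acute-phase protein, at 0.35 (SE 0.22). In the 5 libraries without lasered replicate 2 the median was 1.01 and 18 of 20 were called higher, with Gfap at 1.96 (SE 0.24, adjusted p = 0.000765).

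A further list holds cytokines that act through the gp130 receptor, their receptors and their targets. It also holds other factors, Edn2 and Fgf2 among them, and shares members such as these with the gliosis list. In it Bcl3, an IkappaB family regulator, had 2.81, 1.87 and 1.75 CPM without laser and 7.57, 2.96 and 11 CPM with it (log2 change 1.25, SE 0.34). Clcf1, a ligand of the gp130 family, had 1.27, 1.21 and 1.29 CPM against 2.33, 1.40 and 2.40 CPM (0.41, SE 0.13). Il6st, which encodes gp130 itself, was at 0.28 (SE 0.10). Bcl3 and Clcf1 separated the groups upwards and Il6st did not. A further 2 members of the list separated them downwards by small differences, among them the receptor gene Lifr at -0.05 (SE 0.05), named after its values were seen. In each direction 2 of 18 thus lay without overlap, near the 8.74% above and 8.62% below over all genes. The list median was 0.45 over 18 genes, with 14 above 0, and 0.67 with 12 called higher and 1 lower without lasered replicate 2. Fgf2 overlaps Nudt6, Edn2 overlaps Gm36134, Gfap overlaps Gm34560, Bcl3 overlaps Gm16174 and Clcf1 overlaps LOC102631992 on the opposite strand.

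Among genes of resting Müller glia 8 of 16 separated the groups, all upwards, against 8.74% of all genes, and none was called. Slc1a3, the glutamate transporter of Müller glia, had 114, 99.3 and 100 CPM without laser and 147, 121 and 149 CPM with it (log2 change 0.40, SE 0.09, limma adjusted p = 0.346). Dkk3, a secreted glial protein, had 327, 281 and 286 CPM against 385, 330 and 419 CPM (0.34, SE 0.09), and Car14, a membrane carbonic anhydrase, was at 0.26 (SE 0.07). For Slc1a3 and Dkk3 the lowest lasered library was replicate 2, by a margin smaller than in the injury genes. Apoe, the lipid carrier made by Müller glia and microglia, had 225, 142 and 143 CPM against 390, 213 and 601 CPM (1.14, SE 0.33), and lasered replicate 2 lay below unlasered replicate 1. The list median was 0.27, and 0.38 with 11 called higher and 1 lower without lasered replicate 2. Car14 overlaps Aph1a, Slc1a3 overlaps Gm31340 and, on its own strand, LOC118568186.

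Microglial genes had a median of 0.51 over 17, with 16 above 0, 3 higher without overlap, against 8.74% of all genes, and 0 called. Their sum was 99.6, 71.7 and 69.8 CPM without laser and 135.5, 81.2 and 145.5 CPM with it. Siglech, a lectin of resident microglia, separated the groups at 0.827, 0.812 and 0.656 CPM against 1.62, 1.16 and 1.57 CPM (log2 change 0.47, SE 0.10). Selplg, a ligand for selectins, did so at 0.809, 0.622 and 0.461 CPM against 1.24, 0.945 and 1.86 CPM (0.51, SE 0.14). Cx3cr1, the fractalkine receptor, was at 2.45, 1.5 and 1.42 CPM against 5.16, 2.42 and 5.59 CPM (0.91, SE 0.24), just short of separation. Csf1r, the receptor on which microglia depend, was at 0.84 (SE 0.24) and Aif1, the gene of IBA1, at 0.30 (SE 0.13) from a level under 1 CPM. Without lasered replicate 2 limma called 15 of 17 higher.

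Complement genes had a median of 0.64, with 17 of 18 above 0, and 0 of the 18 separated the groups, against 8.74% of all genes. C4b, of the classical pathway, was at 12.9, 5.62 and 4.50 CPM without laser and 26.7, 9.59 and 52.7 CPM with it (log2 change 1.65, SE 0.54). The subunits of the initiating complex C1qa (1.34, SE 0.46) and C1qb (1.27, SE 0.42) also had lasered replicate 2 below unlasered replicate 1. C3, the central component, was at 0.938, 0.398 and 0.425 CPM against 4.55, 0.381 and 2.59 CPM, so that lasered replicate 2 had the lowest level of all 6. Genes of phagocyte activation had a median of 0.64, all 19 above 0, with the phagocytic receptor Axl at 0.84 (SE 0.29) and the high-affinity antibody receptor Fcgr1 at 0.71 (SE 0.22). Of these 19 genes 1 separated the groups. Once lasered replicate 2 was left out limma called 12 of 18 complement and 16 of 19 phagocyte genes higher, against 11% of all genes. Among chemokines 8 of 17 in the table passed the filter, with Cxcl16 at 4.27, 3.82 and 3.24 CPM against 5.19, 4.39 and 5.61 CPM. Of the 8, 3 separated the groups upwards, Cxcl16 among them, and 2 were called higher without lasered replicate 2, against 11% of all genes. Ccl2, which draws monocytes, was at 1.01, 0.0173 and 0 CPM without laser and 0.536, 0.0152 and 0.408 CPM with it, and its highest value was in an unlasered library. Cx3cr1 overlaps Gm33858 and Cxcl16 overlaps Zmynd15 on the opposite strand.

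**Figure D3:**
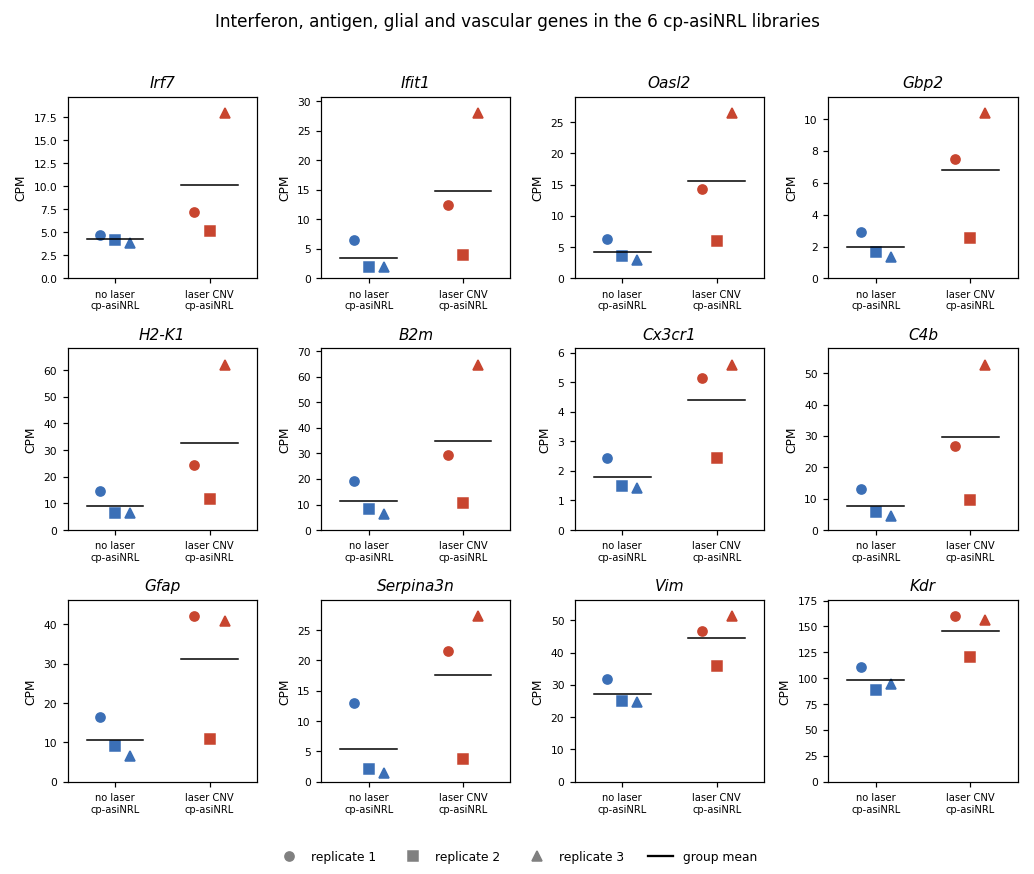
CPM (vertical axes from 0) of 12 interferon, antigen presentation, microglial, complement, glial and vascular genes in the unlasered (blue) and lasered (red) cp-asiNRL libraries, with the marker shape for the replicate and a line at the group mean. Only Irf7, Vim and Kdr hold all 3 lasered libraries above all 3 unlasered ones, and for the other 9 genes lasered replicate 2 lies below unlasered replicate 1.

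Blood vessels were examined because the lesion consists of new vessels. Kdr, the main receptor of vascular endothelial growth factor, which retinal neurons and Müller glia also express, had 111, 89.0 and 94.9 CPM without laser and 160, 120 and 156 CPM with it. The groups did not overlap and the log2 change was 0.55 (SE 0.12, limma adjusted p = 0.346), and 0.68 (SE 0.07, adjusted p = 0.000516) without lasered replicate 2. Other endothelial markers differed among themselves. Pecam1 was at 10.6, 9.73 and 10.2 CPM against 8.99, 10.4 and 9.26 CPM (-0.08, SE 0.08), and Cdh5, the adhesion molecule of endothelial junctions, at 1.76, 1.78 and 1.51 CPM against 2.63, 1.52 and 2.69 CPM (0.27, SE 0.15). Over 19 endothelial genes the median was 0.13 with 16 above 0. Of these 4 separated the groups upwards, Kdr and Tie1 among them, against 8.74% of all genes. Without lasered replicate 2, 4 were called higher, Vwf (0.69, SE 0.26 with all libraries) among them, against 11% of all genes. Vegfa, the growth factor itself, was at 47.2, 50.7 and 42.6 CPM without laser and 47.5, 49.9 and 47.6 CPM with it, with a log2 change of 0.05 (SE 0.07) that turned to -0.02 without unlasered replicate 3.

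Receptors and ligands of vessel growth, Kdr and Vegfa included, had a median of 0.06 over 23 genes. Of these 4 separated the groups upwards, against 8.74% of all genes. Without lasered replicate 2 limma called 7 higher and 1 lower, against 11% and 10.8% of all genes. Nrp1, a co-receptor, was at 0.35 (SE 0.10), Thbs1, an inhibitor of vessel growth, at 0.64 (SE 0.22), and Tie1, an endothelial receptor, separated the groups at 1.58, 1.33 and 1.20 CPM against 1.64, 1.86 and 1.88 CPM. Pdgfrb, the receptor of pericytes, had 12.2, 12 and 11.3 CPM against 15.4, 13 and 17.1 CPM without overlap (0.33, SE 0.09). Of 12 pericyte and smooth muscle genes 2 separated the groups upwards. Genes of matrix and transforming growth factor beta were above 0 in 26 of 26 with a median of 0.24, and 2 of the 26 separated the groups, near the share of all genes. Among them Sparc was at 0.50 (SE 0.15), Tgfbi at 0.79 (SE 0.29), Tgfb2 at 0.28 (SE 0.10) and Col5a1 at 0.25 (SE 0.09). Col1a1, the fibrillar collagen of scars, was at 0.257, 0.0173 and 0.195 CPM against 0.318, 0.290 and 0.422 CPM. With lasered replicate 2 left out, 16 of the 26 matrix genes were called higher, against 11% of all genes. Kdr overlaps Gm32727, Nrp1 overlaps Gm32643, Cdh5 overlaps Gm29682, Tgfb2 overlaps Gm35655 and Col5a1 overlaps Gm13372 on the opposite strand.

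Pigment epithelium genes showed a different order of libraries. Of 18 tested, 7 separated the groups upwards, against 8.74% of all genes, with a median of 0.21 and 0 called. The list ran from -0.05 to 0.61, with 3 members below 0. Ttr, the retinol carrier transthyretin, had 3.75, 3.51 and 3.49 CPM without laser and 5.38, 7.10 and 5.59 CPM with it (log2 change 0.61, SE 0.11, limma adjusted p = 0.346). Dct, an enzyme of pigment synthesis, had 2.54, 2.28 and 2.45 CPM against 3.10, 5.01 and 3.68 CPM (0.51, SE 0.14). Tyrp1, another enzyme of pigment synthesis, had 0.919, 0.605 and 0.797 CPM against 0.971, 2.1 and 1.82 CPM. Here lasered replicate 2 had the highest level, the library that stood nearest the unlasered group for glial and rod genes. Rlbp1, the retinaldehyde-binding protein of pigment epithelium and Müller glia, was at 0.22 (SE 0.07), and Rpe65, the visual cycle isomerase, at 1.82, 2.16 and 1.90 CPM against 2.01, 3.41 and 2.62 CPM. In the 5 libraries without lasered replicate 2 the median was 0.11 and 3 of 18 were called higher, a count near the 11% of all genes. How much pigment epithelium each dissected retina carried was not measured separately, and its part in these values was not tested.

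Genes of inner retinal neurons had small differences. Of 15 ganglion cell genes 6 separated the groups upwards, against 8.74% of all genes, with a median of 0.14. Nefm, a neurofilament, had 14.6, 13.8 and 14.0 CPM without laser and 18.8, 16.2 and 18.0 CPM with it (log2 change 0.30, SE 0.07), and Thy1 had 13.1, 12 and 11.8 CPM against 15.7, 13.7 and 14.3 CPM (0.23, SE 0.07). Sncg (0.17, SE 0.07) and Nefh (0.20, SE 0.08) did so too. The 6 also include an axon injury gene. The other ganglion genes overlapped, and the list ran from -0.02 to 0.37 with 2 members below 0. Amacrine genes had a median of 0.105 over 15, and Calb2, the calcium-binding protein calretinin, separated the groups at 46.2, 42.8 and 46.9 CPM against 50.5, 53.7 and 49.6 CPM (0.18, SE 0.06). Bipolar genes had a median of 0.02 over 15 and horizontal cell genes a median of 0.05 over 9. None of these was called with all libraries, and without lasered replicate 2 limma called 5 ganglion genes higher, 2 amacrine genes higher and 1 lower, 3 bipolar genes higher and 2 lower, and 2 horizontal cell genes higher. Over all genes these shares were 11% higher and 10.8% lower, and the amacrine, bipolar and horizontal cell counts lie near them. Nefm overlaps A230070E04Rik and Nefh overlaps Ap1b1 on the opposite strand.

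Sterol and sugar metabolism genes mostly lay below 0. Of 23 genes of cholesterol synthesis 21 were below 0, with a median of -0.17 and 0 called, and 4 lay below without overlap, against 8.62% of all genes. Msmo1, a sterol demethylase, had 30.9, 31.6 and 34.4 CPM without laser and 23.7, 28.9 and 22.2 CPM with it (log2 change -0.37, SE 0.09), and Idi1, an isomerase of the isoprenoid branch, had 11.5, 12.3 and 14.8 CPM against 9.19, 10.8 and 8.90 CPM (-0.38, SE 0.11). Hmgcs1, the synthase at the entry of the pathway, was at -0.37 (SE 0.10), and its groups overlapped through lasered replicate 2. Hk2, the hexokinase of photoreceptors that starts glycolysis, had 267, 277 and 253 CPM against 156, 251 and 160 CPM. The groups did not overlap, by a narrow margin in replicate 2 (-0.52, SE 0.16, limma adjusted p = 0.346), and without that library the value was -0.74 (SE 0.05, adjusted p = 2.66e-05). Pgk1 (-0.33, SE 0.10) and Ldha (-0.26, SE 0.10), later glycolytic enzymes, overlapped, and the glycolysis median was -0.05 over 19 genes. Without lasered replicate 2 limma called 13 of 23 cholesterol and 7 of 19 glycolysis genes lower. Hspa5, the chaperone BiP of the endoplasmic reticulum, was at 77.5, 80.4 and 81.3 CPM against 71.5, 80.8 and 82.0 CPM, and its log2 change of -0.03 (SE 0.06) turned to 0.01 with library total scaling and to 0.03 without lasered replicate 1.

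Genes of the circadian clock separated the groups in both directions, 3 up and 3 down of 16, against 8.74% and 8.62% of all genes, with a median of 0.03. The repressor Nr1d1 had 44.8, 43.5 and 46.0 CPM without laser and 53.5, 53.1 and 53.6 CPM with it (log2 change 0.25, SE 0.05, limma adjusted p = 0.346). Its output partner Dbp had 49.6, 44.5 and 49.5 CPM against 53.4, 61.8 and 59.8 CPM (0.28, SE 0.07). Arntl, the activator that Nr1d1 represses, had 185, 201 and 190 CPM against 175, 176 and 154 CPM (-0.19, SE 0.06), and Cry1 had 60.3, 57.6 and 60.4 CPM against 51.2, 56.4 and 47.1 CPM (-0.21, SE 0.07). Lasered replicate 2 lay with the other lasered libraries for Nr1d1, Dbp and Arntl, and for Cry1 it lay nearer the unlasered ones. Without it limma called 3 of the 16 higher and 3 lower, against 11% and 10.8% of all genes. The labels give no hour of collection. Nr1d1 overlaps Thra, Dbp overlaps Sphk2 and Arntl overlaps Gm33721 on the opposite strand.

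The 8 genes with the smallest p in each direction were taken among named genes without overlap and above a minimum mean level. None was in the gliosis, interferon, complement or microglia lists. This contrast depends on the rule, which drops genes that overlap through 1 library. Vim, of the gliosis list, had a smaller p (limma, unadjusted 0.00077) than Pdcd10 (0.00085) and Hadhb (0.00106), which were taken. Slc15a2, a peptide transporter, had the smallest p of all, at 85.9, 105 and 116 CPM without laser and 42.9, 27.8 and 32.9 CPM with it. The means were 102 ± 15.1 and 34.5 ± 7.69 CPM (SD, n = 3 each), a log2 change of -1.55 (SE 0.15, limma adjusted p = 0.091). It was the single gene called on leaving out lasered replicate 1 (adjusted p = 0.0406), and it was called without replicate 2 as well (-1.41, adjusted p = 0.000244). The next genes lower were Syncrip and Hnrnpc, which encode RNA-binding proteins, Chaserr, a long noncoding RNA, Pdcd10, a protein of vascular integrity, Rsbn1, Rybp, a subunit of Polycomb complexes, and Hadhb, of fatty acid oxidation, at -0.22 to -0.32. Syncrip had 114, 118 and 116 CPM against 94.4, 99.2 and 92.1 CPM. The genes higher, beside Ttr and Nr1d1, were Aif1l, Fyb, Gnb2, Slc22a17, Gpr37 and Lynx1, at 0.23 to 0.46. Aif1l, an actin-bundling relative of Aif1, had 5.24, 5.32 and 5.79 CPM against 7.60, 7.94 and 8.05 CPM, and Gpr37, a receptor of glia and neurons, had 71.4, 63.8 and 68.5 CPM against 97.1, 81.3 and 87.3 CPM. Each of the 16 was past the threshold in limma without lasered replicate 2 and none with it.

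The same 16 genes were set against the PBS libraries. On a scaling common to the 12 libraries, the 3 unlasered cp-asiNRL libraries lay wholly outside the range of the 6 PBS libraries for 7 of the 16 genes, against 8.3% of all genes tested, and the 3 lasered ones did so for 2, against 7.08%. These genes were chosen for a difference between the same groups, so the counts are a description. Slc15a2 ranged from 24.0 to 79.6 CPM over the PBS libraries, and the unlasered cp-asiNRL libraries lay above that range, at 84.8 to 115 CPM, while the lasered ones lay inside it, at 27.4 to 42.5 CPM. Fyb, an adaptor of immune cells, ranged from 14.7 to 17.6 CPM over the PBS libraries, from 13.6 to 14.0 CPM in the unlasered and from 16.9 to 18.0 CPM in the lasered cp-asiNRL libraries. Ttr ranged from 4.96 to 9.26 CPM over the PBS libraries, from 3.47 to 3.70 CPM in the unlasered and from 5.33 to 7.01 CPM in the lasered ones. Fyb overlaps Gm2245, Gnb2 overlaps LOC118568758, Rsbn1 overlaps Phtf1os and Ttr overlaps Gm16090 on the opposite strand, and Slc22a17 overlaps Efs, Chaserr overlaps Chd2 and Hadhb overlaps Mir1960 on their own.

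**Figure D4:**
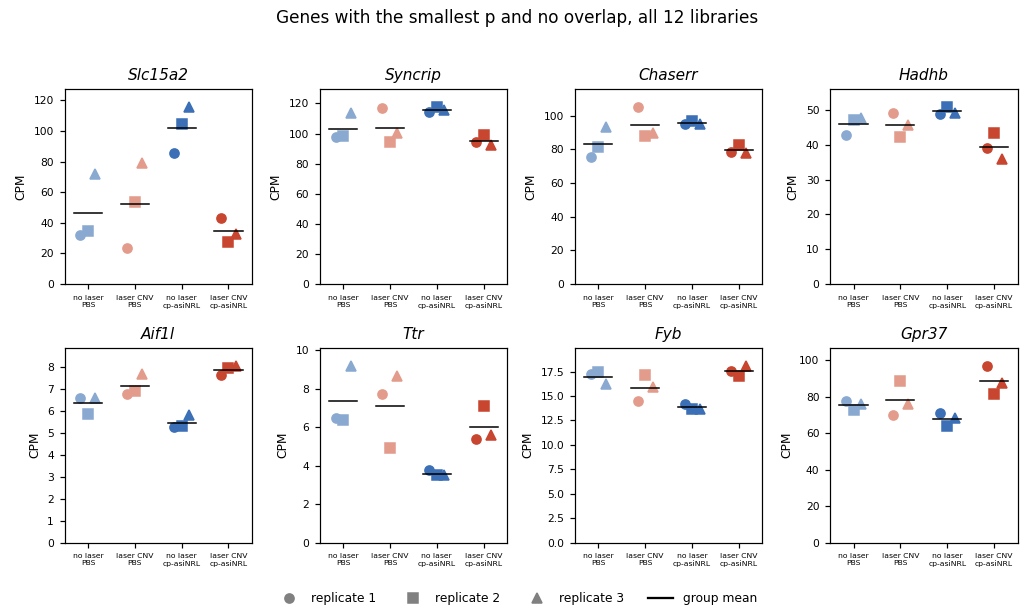
CPM (vertical axes from 0) of 8 of the 16 genes with the smallest p and no overlap in the 12 libraries, from left to right unlasered PBS, lasered PBS, unlasered cp-asiNRL and lasered cp-asiNRL, with the marker shape for the replicate and a line at the group mean. PBS and cp-asiNRL libraries were scaled within their own 6. In Slc15a2 the unlasered cp-asiNRL libraries, at 85.9 to 116 CPM, stand above every other library, and in Ttr they stand below every other one.

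The laser effect under PBS comes from 6 other libraries and shares none with the comparison above. There limma called 151 of 24410 genes, 123 higher (0.504%) and 28 lower (0.115%), a count that other settings moved between 0 and 524. Interferon-stimulated genes had a median of 0.43 under PBS with 17 of 33 called higher, against 0.915 and 0 called under cp-asiNRL. Ifit1 was at 1.49, 1.74 and 1.62 CPM in unlasered and 4.94, 4.22 and 3.61 CPM in lasered PBS libraries, scaled within their own 6, and rose by a log2 change of 1.0 (adjusted p = 0.000454). The PBS libraries of a group lay close together for this gene, and the lasered cp-asiNRL libraries ranged over 3.99 to 28.0 CPM. Oasl2 (0.84), Gbp2 (0.67), Gbp6 (0.72), B2m (0.98) and C4b (1.58) rose as well under PBS. Guanylate-binding and immunity-related GTPases had a median of 0.45 with 8 of 16 called higher, and MHC class I genes a median of 0.345 with 3 of 17.

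Reactive gliosis had nearly the same median in both settings, 0.70 under PBS with 6 of 20 called higher and 0.69 under cp-asiNRL. Serpina3n (1.85), Edn2 (1.5) and Fgf2 (1.14) rose under PBS, whereas Gfap was at 6.46, 5.89 and 6.46 CPM without laser and 8.54, 27.5 and 9.95 CPM with it and was not called (0.98, adjusted p = 0.133). Among the lasered PBS libraries replicate 2 thus stood above the others for Gfap. It did so for the whole list, whose sum was 330, 626.8 and 358.8 CPM in lasered PBS replicates 1 to 3. The sum of phagocyte activation genes was 181.8, 457.3 and 233.6 CPM in these libraries, and that of rod genes 21350, 19150 and 23190 CPM. The list medians under PBS thus also rest on lasered libraries that differed among themselves. Rod genes had a median of -0.10 under PBS with 0 of 16 called, against -0.295. Hk2 fell by 0.50 under PBS (adjusted p = 0.00526) and was at -0.52 under cp-asiNRL, and Hmgcs1 fell by 0.35 (adjusted p = 0.0269) and was at -0.37. Of the cholesterol genes 5 of 23 were called lower under PBS, with a median of -0.26.

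The difference of the laser effects, cp-asiNRL minus PBS, was tested over all 12 libraries. Limma called 0 of 25619 genes in either direction (0%), 1615 stood at an unadjusted p under 0.05, and voom also called 0. For Ifit1 the difference was 0.66 (SE 0.66), for H2-K1 0.92 (SE 0.63), for Gfap 0.36 (SE 0.65) and for Gngt1 -0.32 (SE 0.20). The list medians of the difference were 0.49 for interferon-stimulated genes, 0.505 for MHC class I and -0.15 for rods. No gene was thus shown to respond to the laser differently under cp-asiNRL, and standard errors of this size do not show that the responses were alike. Etnppl, a phospholyase of astrocytes and Müller glia, had the smallest p, at 12.5, 7.88 and 10.8 CPM against 6.01, 8.69 and 7.67 CPM under cp-asiNRL and 4.12, 4.51 and 5.34 CPM against 6.69, 10.1 and 9.24 CPM under PBS (difference -1.18, SE 0.23, adjusted p = 0.777). It rose with the laser under PBS (0.76, adjusted p = 0.0111) and was at -0.42 (SE 0.17) under cp-asiNRL. Without lasered cp-asiNRL replicate 2 limma called 9 genes for the difference, all lower. Etnppl overlaps Gm36322 on the opposite strand.

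**Figure D5:**
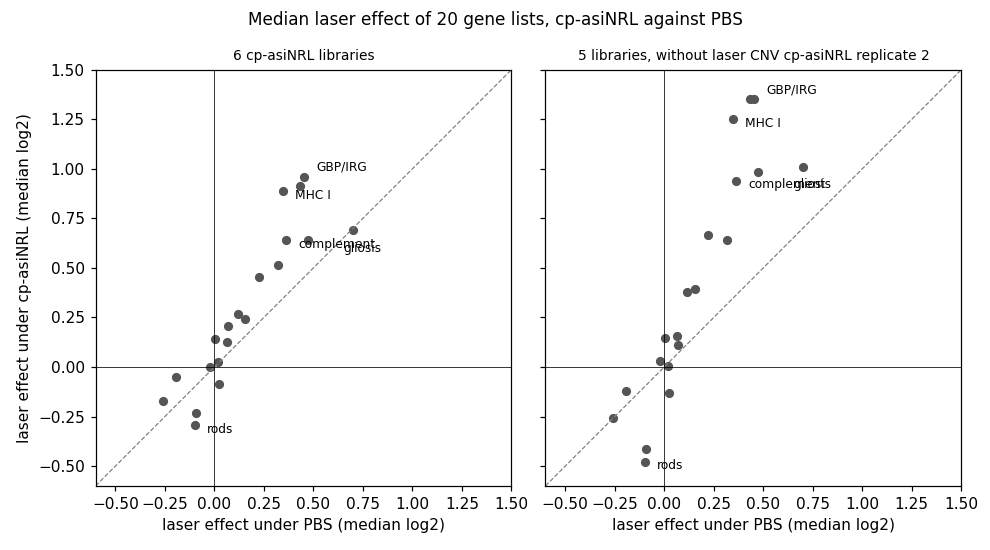
Median log2 laser effect of 20 gene lists under cp-asiNRL (vertical axis) against that under PBS (horizontal axis), with all 6 cp-asiNRL libraries on the left and without lasered cp-asiNRL replicate 2 on the right, 1 point per list and a dashed line at equal values. With all libraries gliosis lies on the line (0.70 and 0.69) and the GBP/IRG list above it (0.45 and 0.96), and without that replicate the GBP/IRG median is 1.35 and that of rods -0.48.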

How the data were processed

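Retinal RNA was sequenced in 12 libraries, from a strand-marking poly(A) kit per the labels' protocols. The submitters' processing notes name HISAT2 2.1.0, featureCounts 1.6.0 and mm10, while gene coordinates in the file are GRCm39. The deposited signal is headed FPKM, but each value times the deposited gene length was whole within 1e-06 for all 482424 values, so it is reads per base of genomic span, introns included and not scaled to depth. Genes nested on the opposite strand had a median 0.784 of the read density of their host (2496 pairs), so counts do not separate strands.

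Reads were recovered as signal times length, and library totals were scaled by a trimmed mean of log ratios (trims of 30% and 5%). Genes needed a CPM equal to 10 reads at the median library in at least 3 libraries and 15 reads in all. Two-sided limma trend fits (limma 3.58.1, R 4.3.3) were made on log2(CPM + 1), with Benjamini-Hochberg adjustment over all genes at 0.05. The fits used the 6 libraries of a comparison, or all 12 for the difference. The procedure was tested on simulated data. The 42 gene lists (747 of 750 entries in the table) and the named genes were chosen with earlier results of these data known. The rule named Nrl, the 8 genes with the smallest p in each direction without overlap, up to 4 genes of each list described with the smallest p, and fixed genes of photoreceptors, injury and immunity. It also took the genes with the smallest p for the difference, and not all are printed; some withheld genes are not reported here. Chi-square per gene between libraries within a cp-asiNRL group was 4.14 to 51, and none was a copy of another. Alternatives covered scaling, filter, pseudocount, voom, quality weights, gene span, a replicate block and each library left out. Leaving out 2 libraries together was added after seeing the data.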

Additional observations from a re-analysis of the deposited data

Results flagged for a closer look

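For Calb2 and Dbp every lasered library lay above every unlasered library under cp-asiNRL and below every unlasered library under PBS. These genes were picked by searching the named genes and the list sums for opposite separation. The share of all genes with that pattern was not counted, so the pair is a description. The ratio of mean CPM, lasered over unlasered, was 1.13 under cp-asiNRL and 0.917 under PBS for Calb2. For Dbp it was 1.22 and 0.886. The difference of the laser effects was 0.30 (SE 0.09) for Calb2 and 0.45 (SE 0.10) for Dbp on the log2 scale, and neither passed in limma over all genes (adjusted p = 0.777 for both). Dbp overlaps Sphk2 on the opposite strand. Groups of 3 libraries were too small to test a single library as far from the others.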

How the results depend on the processing

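With all 6 cp-asiNRL libraries limma called 0 genes, and library quality weights gave 4140 (2167 higher, 1973 lower). Leaving out 1 library gave 0 to 5404 genes, and leaving out unlasered replicate 1 and lasered replicate 2 together gave 5493. The other settings gave 0. The PBS count of 151 became 42 with library total scaling, 0 with no filter on low values, 85 with a filter at a mean of 5 CPM, 89 with a pseudocount of 4, 0 with 12 libraries in the fit, 313 with quality weights and 87 with the gene span trend removed. Leaving out 1 PBS library gave 28 to 524. For the difference of the laser effects, leaving out 1 library gave 0 to 9 genes, and the other settings gave 0. The causes were not tested.

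The Nrl difference in mean CPM, -71.4, was -61.3 and -74.5 with other scalings, and -136 to -23.4 with 1 library left out. Of the 121 genes named, 3 changed sign. The log2 change of Hspa5 was 0.0134 with library total scaling, and from -0.0839 to 0.0293 with libraries left out. The log2 change of Vegfa ranged from -0.0179 to 0.105 and the log2 change of Ccl2 from -0.139 to 0.213 with 1 library left out, and the latter was -0.00149 with a pseudocount of 4. Over all settings the list median ranged from -0.542 to -0.142 for rods, from 0.577 to 1.51 for interferon-stimulated genes and from 0.459 to 1.20 for gliosis. Of the list medians printed, those of cones (-0.0228 to 0.0768), bipolar cells (-0.0158 to 0.0703), RNA sensing (-0.0431 to 0.135), cell cycle (-0.0655 to 0.134), oxidative phosphorylation (-0.137 to 0.0151), mitochondrial DNA (-0.0418 to 0.0514) and unfolded protein (-0.0793 to 0.00256) changed sign.

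The labels do not say what a shared replicate number marks. Deviations of same-numbered unlasered and lasered libraries correlated at 0.31, 0.22 and -0.33 across genes, and those of differently numbered ones at -0.56 to 0.46. These few values cannot settle whether the numbers pair the samples. With the replicate number as a block limma called 0 genes under cp-asiNRL, 398 under PBS and 0 for the difference.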

Other observations

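Without lasered replicate 2 limma called 11% of all genes higher and 10.8% lower, and with all 6 libraries 8.74% of genes lay above and 8.62% below without overlap; the counts here are to be read against these shares. Cell cycle genes had a median log2 change of 0.09 over 12, with 4 of them higher without overlap, and 3 of 11 called higher and 1 lower without lasered replicate 2. Genes of antioxidant defence and metallothioneins had a median of 0.09 over 19, with 3 higher without overlap, and 5 called higher and 1 lower without that library. Genes of inflammasomes and cell death had a median of 0.12 over 17 and 15 above 0, and without lasered replicate 2 limma called 7 of them higher. Immediate early genes had a median of 0.15 over 19, with 7 called higher and 1 lower without that library.

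Nuclear genes of oxidative phosphorylation had a median of -0.03 over 18, with 2 lower without overlap, a share near that of all genes, and 5 called lower without lasered replicate 2. Ribosomal protein genes had a median of -0.09 over 20, with 16 below 0 and 4 called lower without that library. Genes encoded by mitochondrial DNA had a median of 0.0051 over 13, with 1 called lower without it, and those of the unfolded protein response one of -0.04 over 25, with 3 called lower. Heat shock genes had a median of 0.07 over 14, with 4 called higher and 1 lower. The medians of the cell cycle, oxidative phosphorylation, mitochondrial and unfolded protein lists changed sign with the processing.

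Markers of neighbouring tissues were measured as well. Lens genes summed to 6.31, 6.76 and 5.56 CPM in the unlasered libraries and 14.99, 5.38 and 7.34 CPM in the lasered ones, so that lasered replicate 1 stood above the others. Genes of ciliary body, iris and vitreous summed to 130.5, 128.1 and 123.3 CPM against 156.5, 130.9 and 158.4 CPM. Blood cell genes summed to 95.1, 98.0 and 96.5 CPM against 87.6, 94.9 and 84.4 CPM, and skeletal muscle genes to between 7.48 and 8.56 CPM in all 6. Their part in the results was not tested.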
